A study of Homo sapiens with 12 samples.

Results

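Metallothioneins are small cysteine-rich proteins that bind zinc and copper and can also capture cadmium and platinum. They were followed here through 9 of their genes (MT1A, MT1E, MT1F, MT1G, MT1H, MT1M, MT1X, MT2A and MT3) together with MTF1, the zinc-sensing transcription factor that drives them. The 10 genes were taken by their symbols from the 46350 named genes of each library, and no measured value entered the choice. The data are RNA sequencing counts of 12 libraries in 4 groups of 3: SKOV3 and SKOV3/DDP cells, each either left untreated or given paeonol (PAE). SKOV3 is an established human line of epithelial ovarian cancer that the labels call cisplatin-sensitive. SKOV3/DDP, which the labels call cisplatin-resistant, is given in the study's methods as its drug-resistant derivative. PAE is a phenolic compound of peony root, and the labels give neither its dose nor its time. Each line stands for 1 cell line, and the series' text speaks of both biological and experimental triplicates, so the p-values measure the spread between libraries, which may be partly technical.

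Metallothionein transcription is switched on when free zinc rises: MTF1 binds zinc, enters the nucleus and occupies metal response elements upstream of the metallothionein genes. The same factor drives SLC30A1, which exports zinc from the cell, and holds down SLC39A10, which imports it. In cancer cells, metallothioneins are known as intracellular traps for metal ions and for platinum drugs such as cisplatin. Most of the human genes lie side by side on chromosome 16, where MT2A and the MT1 genes are widely expressed and MT3 is best known from brain.

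Of the 10 genes, 5 had enough counts to be tested: MT2A, MT1X, MT1E, MT1F and MTF1. MT1A, MT1M and MT3 had 0 counts in all 12 libraries. MT1G and MT1H had 1 count each over all libraries, MT1G in untreated SKOV3 and MT1H in SKOV3 with PAE. A total of 0 or 1 count in libraries of this depth is at or under the limit of 3 counts used here for detection, and intervals and limits of this kind cover counting error only. These 5 genes therefore gave no comparison.

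The libraries held 14610008 to 18263479 counts each. Markers of the expected tissue were mixed. Of 7 Müllerian or ovarian epithelial markers, WT1, SOX17 and EMX2 had no counts in untreated SKOV3, while KRT7 was at a mean of 3607 CPM (counts scaled to library size with TMM factors) there and at 1.22 CPM in untreated SKOV3/DDP. PAX8 and MUC16 were also lower in untreated SKOV3/DDP, whereas MSLN was higher, at 388 CPM against 149 CPM in untreated SKOV3. The sum of the 7 genes therefore rests mostly on KRT7 in SKOV3 and on MSLN in SKOV3/DDP. The summed level of the 7 genes ranged from 3631 to 3926 CPM in untreated SKOV3, 1316 to 2286 with PAE, 341 to 438 in untreated SKOV3/DDP and 251 to 368 with PAE. Of 6 intestinal epithelial markers, the sum stayed below 0.887 CPM in all SKOV3 libraries, and 5 of the 6 had no counts in untreated SKOV3. In SKOV3/DDP the same sum was 531 to 576 CPM untreated and 163 to 249 with PAE, with CDH17 alone at 339 CPM untreated. ERBB2, amplified in SKOV3, ranged from 284 to 326 CPM in untreated SKOV3 and from 24.3 to 119 CPM in the other groups. Fibroblast markers (4 genes, COL1A2 at 0 in every group) summed to at most 14.2 CPM and leukocyte markers (3 genes, all at 0 in untreated SKOV3) to at most 0.526 CPM. Every difference between the lines below therefore sits beside a difference in lineage markers, and its part in the metallothionein levels was not tested. The lines also differed in the share of counts on mitochondrial genes, at 1.29 to 2.44% in SKOV3 and 3.93 to 11.2% in SKOV3/DDP. In addition, the untreated SKOV3 libraries stood apart in base composition. Across genes, the deviation of a library from the mean over all libraries rose with GC content in these 3 (Spearman 0.669 to 0.675) and fell with it in the other 9 (-0.534 to -0.325). For this reason, the tests of MT2A, MT1X, MT1F and MTF1 against untreated SKOV3 are given after those without it. Their values after removal of this trend are given as well. Values of the zinc transporters, cluster neighbours, glucocorticoid-induced genes and other metallothionein loci are given without removal of the trend, and not always in this order. The part of the trend in their changes against untreated SKOV3 was not tested.

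The 4 detected metallothioneins encode nearly the same protein, and their coding sequences are shown because reads within a shared stretch cannot tell the genes apart. Each has 3 exons and 61 codons before the stop, of which 20 are cysteine codons, or 32.8%. Capitals mark the bases at which MT1X, MT1E and MT1F differ from MT2A (GENCODE 29, GRCh38, all genes on the plus strand).
MT2A: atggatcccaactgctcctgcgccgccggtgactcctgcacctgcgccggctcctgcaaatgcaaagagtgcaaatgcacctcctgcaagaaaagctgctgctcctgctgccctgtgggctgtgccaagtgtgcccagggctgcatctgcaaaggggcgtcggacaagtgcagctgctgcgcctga
MT1X: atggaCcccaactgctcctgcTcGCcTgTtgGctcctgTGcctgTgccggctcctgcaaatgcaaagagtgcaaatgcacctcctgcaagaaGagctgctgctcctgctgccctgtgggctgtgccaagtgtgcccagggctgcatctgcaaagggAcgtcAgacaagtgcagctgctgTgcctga
MT1E: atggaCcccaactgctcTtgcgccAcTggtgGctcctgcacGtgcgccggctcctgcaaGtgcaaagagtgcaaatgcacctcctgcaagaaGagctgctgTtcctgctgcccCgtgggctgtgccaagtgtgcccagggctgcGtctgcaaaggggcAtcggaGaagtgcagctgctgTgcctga
MT1F: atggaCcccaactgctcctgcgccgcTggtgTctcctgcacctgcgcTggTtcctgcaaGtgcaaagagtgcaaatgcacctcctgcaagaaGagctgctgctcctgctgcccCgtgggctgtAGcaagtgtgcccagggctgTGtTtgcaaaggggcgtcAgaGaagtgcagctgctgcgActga
MT1X and MT1E each differ from MT2A at 14 of the 186 bases (92.5% identity), and MT1F differs at 16 (91.4%). The longest stretch shared without a difference is 63 bases between MT2A and MT1X, and 32 bases between MT2A and MT1E or MT1F. Over whole transcripts, MT1X shares up to 96 bases with MT1G and up to 65 with MT1A, both of which were at 0 or 1 count. The read length is not given in the sources used here, nor is the treatment of reads that match several genes, so a part of the counts could be split among these copies.

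The genes lie on chromosome 16 at GRCh38 positions chr16:56608584-56609497 (MT2A), chr16:56625781-56627112 (MT1E), chr16:56657959-56659303 (MT1F) and chr16:56682470-56684196 (MT1X), and MTF1 lies on the minus strand at chr1:37809570-37859614. None of the 10 genes overlaps another listed gene in these files. Metal response elements, through which MTF1 is known to act, were searched in the 250 bases upstream of the start site. Those of MT2A, MT1X and MT1H are shown (RefSeq, GRCh38.p14, plus strand, ending at the base before the start site). The promoter set used had no entry for MT1E, MT1F, MT1A, MT1G, MT1M or MT3, so these genes were not searched. Capitals mark the element's core, searched as TGCACNC and TGCGCNC on both strands; a match is a string of letters, not a measured binding site.
MT2A, chr16:56608334-56608583: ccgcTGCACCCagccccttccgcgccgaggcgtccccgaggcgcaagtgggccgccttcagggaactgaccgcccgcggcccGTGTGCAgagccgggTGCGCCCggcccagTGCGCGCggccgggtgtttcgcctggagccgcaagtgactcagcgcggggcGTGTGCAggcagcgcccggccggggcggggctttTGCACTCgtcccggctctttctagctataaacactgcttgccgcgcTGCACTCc
MT1X, chr16:56682220-56682469: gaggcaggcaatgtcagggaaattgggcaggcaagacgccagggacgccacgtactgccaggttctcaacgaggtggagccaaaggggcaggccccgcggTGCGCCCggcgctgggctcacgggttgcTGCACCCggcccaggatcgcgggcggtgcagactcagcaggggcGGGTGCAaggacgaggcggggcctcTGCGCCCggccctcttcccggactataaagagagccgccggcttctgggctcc
MT1H, chr16:56669564-56669813: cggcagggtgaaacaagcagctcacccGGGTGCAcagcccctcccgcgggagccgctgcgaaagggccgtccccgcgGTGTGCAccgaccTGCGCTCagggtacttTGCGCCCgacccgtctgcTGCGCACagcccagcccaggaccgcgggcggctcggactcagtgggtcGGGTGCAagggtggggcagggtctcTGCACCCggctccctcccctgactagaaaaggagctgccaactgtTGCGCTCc
MT2A held 7 cores, 5 of them on the plus strand, and MT1X held 4, 3 of them on the plus strand. MT1H held 8, the most of these 3, although it had a single count in all 12 libraries. At least 1 core was present in 24.8% of 35116 RefSeq promoters, at least 4 in 0.37% and at least 7 in 0.0313%. The 250 bases before the MTF1 start held none.

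MT2A was the most abundant metallothionein in every library. In untreated SKOV3 it stood at 7048, 4376 and 6729 CPM, which placed it between the 15th and the 34th most abundant gene of the library. In SKOV3 with PAE it was at 1028, 1810.3 and 1445 CPM. In untreated SKOV3/DDP it was at 489, 525 and 521 CPM, and with PAE at 286, 285 and 169 CPM, where its rank lay between 370 and 1037. The 4 groups formed 4 levels that did not overlap, and the second untreated SKOV3 library was the lowest of its group. The share of all genes whose groups were separated in this way was not counted, here and for the genes that follow.

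MT1X followed the same order at a lower level. It was at 461, 341 and 425 CPM in untreated SKOV3 and at 182, 171 and 163 CPM with PAE. In SKOV3/DDP it was at 61.0, 119 and 68.4 CPM untreated and at 40.2, 46.6 and 29.6 CPM with PAE. Again no 2 groups overlapped, although the second untreated SKOV3/DDP library was well above the other two.

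MT1F, the least abundant of the 4, was at 22.6, 20.9 and 21.1 CPM in untreated SKOV3 and at 11.2, 10.9 and 8.37 CPM with PAE. It was at 7.27, 8.78 and 8.32 CPM in untreated SKOV3/DDP and at 5.15, 5.73 and 3.03 CPM with PAE. Here the highest and lowest groups stood clear, while SKOV3 with PAE and untreated SKOV3/DDP overlapped.

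MT1E had a different pattern. It had 0 counts in all 6 SKOV3 libraries, treated or not, in which MT2A received 291011 counts. In untreated SKOV3/DDP it was at 254, 308 and 265 CPM, and with PAE at 99.3, 105 and 68.7 CPM. Against the limit of 3 counts over the group, MT1E was at least 3199-fold higher in SKOV3/DDP than in SKOV3 without PAE, and at least 1697-fold higher with PAE in both. These are lower bounds, and MT1E entered the tests through its counts in SKOV3/DDP alone.

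MTF1 was lowest in the group where MT2A was highest. It was at 6.39, 4.18 and 5.85 CPM in untreated SKOV3 and at 37.8, 30.9 and 26.5 CPM with PAE. It was at 28.6, 28.5 and 20.0 CPM in untreated SKOV3/DDP and at 41.2, 33.5 and 73.9 CPM with PAE. Untreated SKOV3 was the lowest group and did not overlap the others, whereas SKOV3 with PAE overlapped both SKOV3/DDP groups. As these are bulk RNA samples, fewer cells with a transcript and less of it per cell cannot be told apart, here and in all results that follow.

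**Figure D1:**
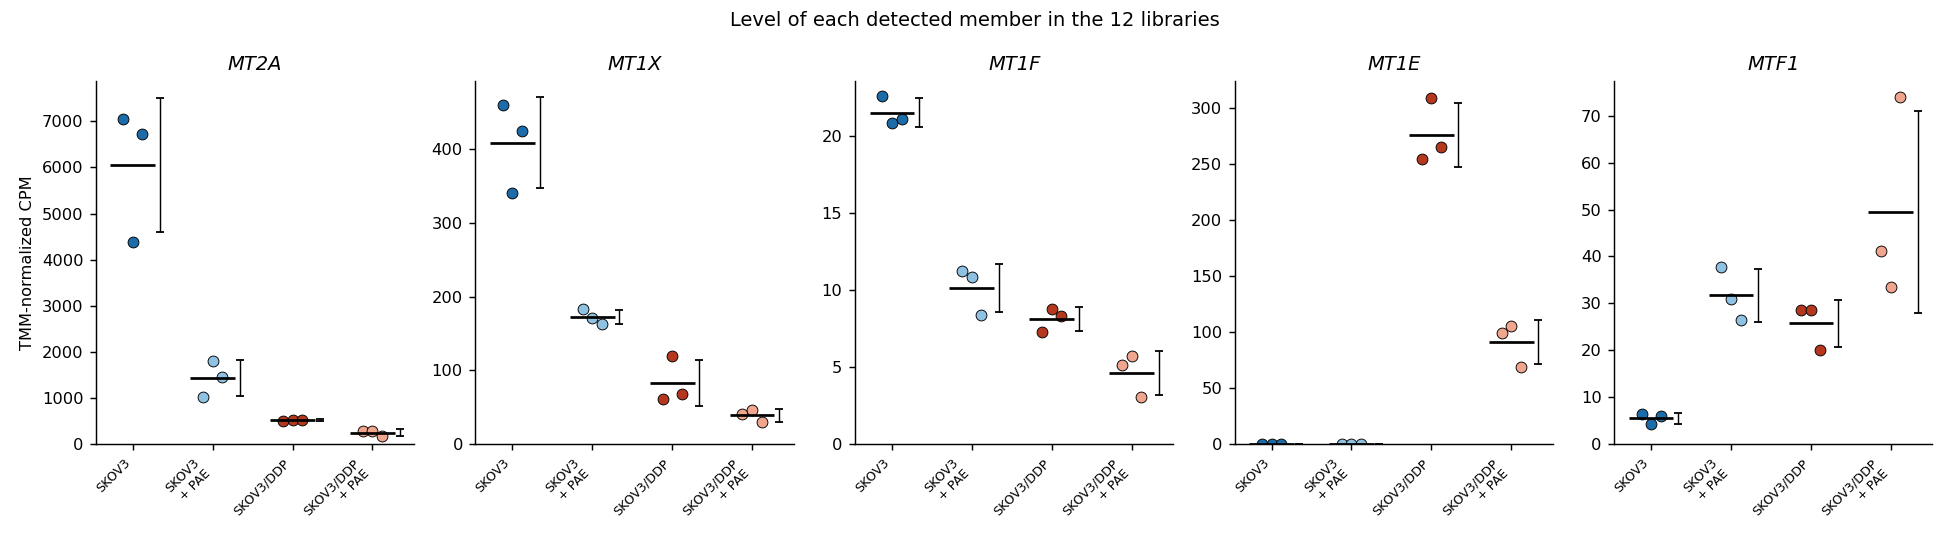
TMM-normalized CPM (vertical axes, linear, from 0) of MT2A, MT1X, MT1F, MT1E and MTF1 in the 12 libraries, by group; points are libraries, thick lines group means and thin bars 1 SD on each side (n = 3). The MT2A means step down from 6051 to 1428, 511 and 247 CPM, MT1E is at 0 in both SKOV3 groups, and MTF1 is lowest in untreated SKOV3.

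Levels of different genes were compared per kilobase of gene length, as mean CPM per kb. In untreated SKOV3 the order was MT2A at 15090 CPM per kb, MT1X at 1012 and MT1F at 46.1, with MTF1 at 0.616. In untreated SKOV3/DDP it was MT2A at 1275, MT1E at 370, MT1X at 205 and MT1F at 17.4, with MTF1 at 2.90. With PAE, SKOV3/DDP kept this order, at 616, 122, 96.0 and 9.93 CPM per kb for the 4 metallothioneins and 5.58 for MTF1. MT1E thus ranked second among the metallothioneins in SKOV3/DDP, at a level per kb that lay below that of MT1X in untreated SKOV3.

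**Figure D2:**
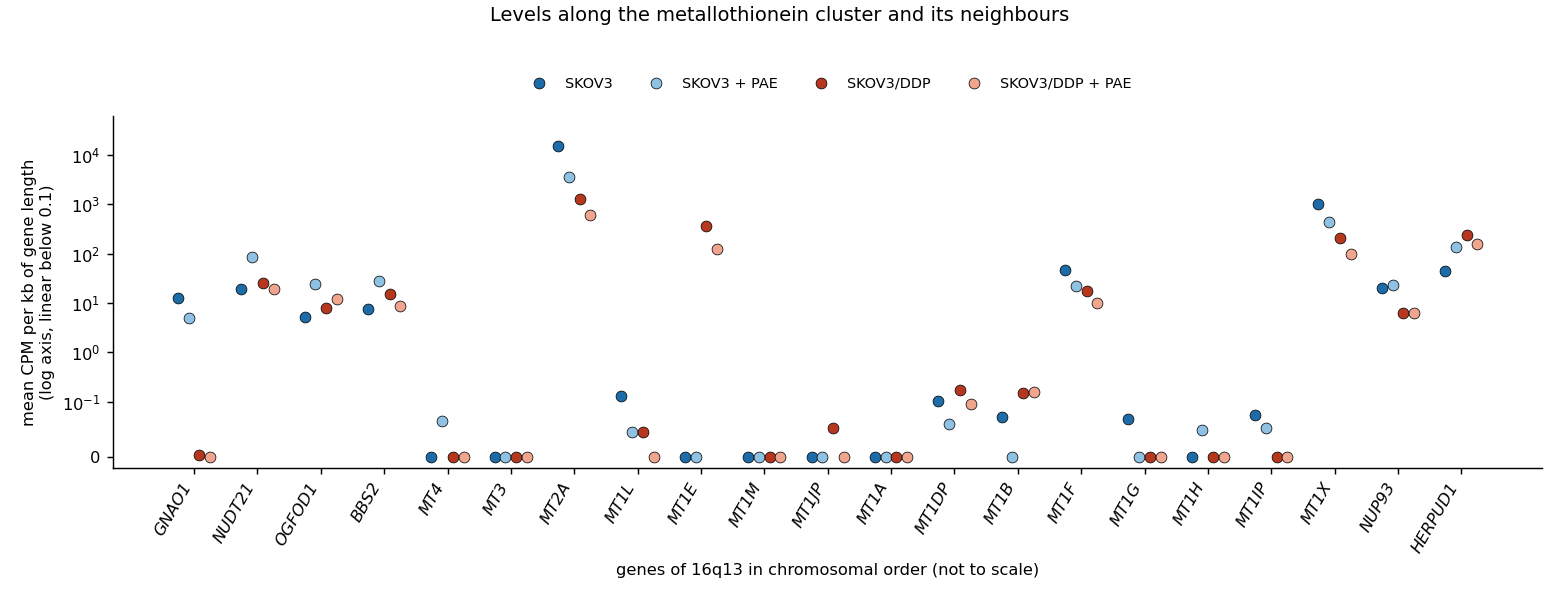
Mean CPM per kb of gene length (vertical axis, logarithmic above 0.1 and linear below) of genes along the metallothionein cluster of 16q13 and its neighbours, in chromosomal order and not to scale; each point is the mean of 3 libraries of a group. MT2A, MT1X and MT1F are detected in all groups, MT1E in SKOV3/DDP alone, GNAO1 nearly in SKOV3 alone, and the other metallothionein loci are at or near 0.

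The makeup of the metallothionein pool differed between the lines. Together, the metallothionein genes took 0.491, 0.305 and 0.484% of the counts on named genes in untreated SKOV3 and 0.144, 0.243 and 0.199% with PAE. In SKOV3/DDP they took 0.0893, 0.0935 and 0.0944% untreated and 0.0515, 0.0541 and 0.0310% with PAE. MT2A made up 92.4 to 93.8% of the pool in untreated SKOV3, 84.1 to 90.9% with PAE, and 54.6 to 60.4% in untreated SKOV3/DDP, where MT1E held 30.7 to 32.1%. These shares and the ratios below are of counts and are not scaled by gene length. MT1E is 746 bases long, against 401 for MT2A and 404 for MT1X, so its share of counts is larger than its share per kb would be. With PAE in SKOV3/DDP, the MT1E share was 23.0 to 25.4% and the MT2A share 62.6 to 66.4%, and neither overlapped the untreated range. Ratios within a library do not depend on the scaling of that library. The count ratio of MT2A to MT1X was 15.3, 12.8 and 15.8 in untreated SKOV3 and 5.63, 10.6 and 8.85 with PAE, and the groups did not overlap. In SKOV3/DDP it was 8.02, 4.42 and 7.61 untreated and 7.13, 6.11 and 5.72 with PAE, which overlapped. MT1E to MT1X stood at 4.16, 2.60 and 3.88 in untreated SKOV3/DDP and at 2.47, 2.26 and 2.32 with PAE.

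**Figure D3:**
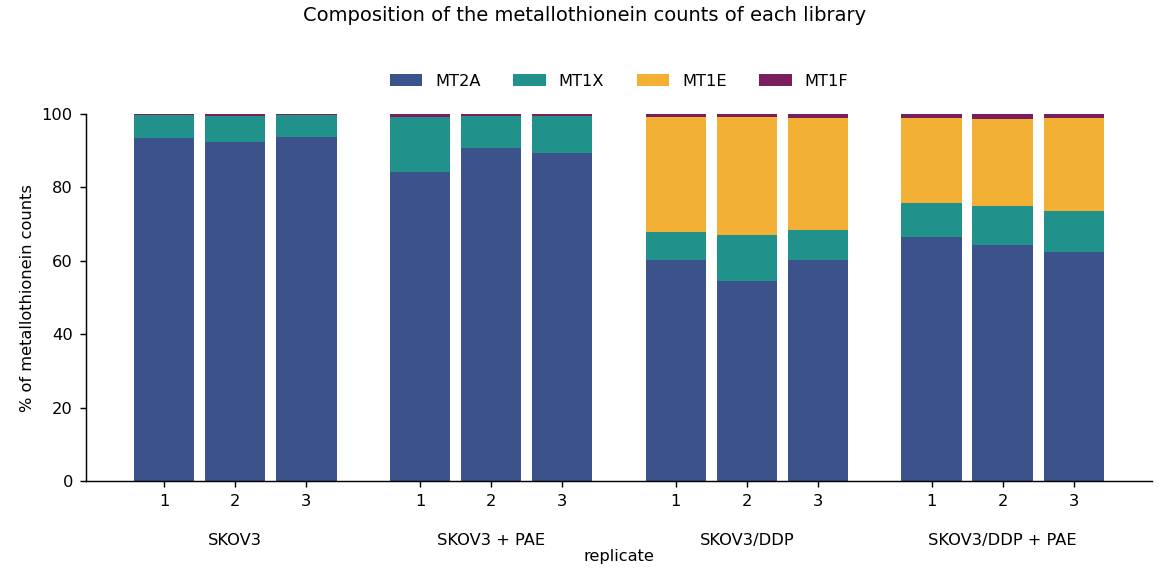
Share of each metallothionein gene in the metallothionein counts of each of the 12 libraries, not scaled by gene length (stacked bars, percent, from 0 to 100). MT2A holds at least 84.1% of the pool in SKOV3, whereas MT1E holds 23.0 to 32.1% in SKOV3/DDP.

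In SKOV3/DDP, PAE lowered the 4 detected metallothioneins and raised MTF1, although the calls of MT1F and MTF1 were lost in some alternatives. Here and below, changes are log2 fold changes with their standard error from edgeR's quasi-likelihood test over 17133 genes, with Benjamini-Hochberg adjusted p-values called under 0.05, and n = 3 libraries a group. MT1E fell by 1.60 (SE 0.23, adjusted p = 0.000849), from a mean of 276 ± 28.7 to 91.1 ± 19.6 CPM (SD). MT1X fell by 1.09 (SE 0.26, adjusted p = 0.00736) and MT2A by 1.05 (SE 0.27, adjusted p = 0.0109). In all 3 genes the groups did not overlap, but the share of all genes without overlap was not counted. MT1F fell by 0.81 (SE 0.27, adjusted p = 0.0404), from 8.12 ± 0.775 to 4.64 ± 1.42 CPM. MTF1 rose by 0.94 (SE 0.29, adjusted p = 0.0270), from 25.7 ± 4.94 to 49.5 ± 21.5 CPM. Of the 10 genes, all 5 that were tested were called, where 26.4% of all genes tested were called, 11.8% higher and 14.7% lower. The median gene moved by 0. Scaled by library size only, 60.2% of the called genes were higher, against 44.5%. The third library with PAE was the lowest for each metallothionein and the highest for MTF1. Mitochondrial genes held 3.93% of its counts, against 6.76 and 8.67% in the other two libraries with PAE and 8.66 to 11.2% in untreated SKOV3/DDP, and the part of this in the results was not tested. Without it, MT2A fell by 0.80 (adjusted p = 0.0459), MT1X by 0.89 and MT1E by 1.39, while MT1F at a change of -0.54 (adjusted p = 0.154) and MTF1 at 0.58 (adjusted p = 0.128) were no longer called. MT1F was also not called without any 1 of the untreated libraries or the first library with PAE, and MTF1 was not called without the third untreated library (0.82, adjusted p = 0.102). After each library's trend on GC content and length was removed, MT2A was at -0.90, MT1X at -0.91, MT1E at -1.45 and MTF1 at 0.88, all called, and MT1F at -0.54 (adjusted p = 0.121) was not. MT1F was also not called with library size only (adjusted p = 0.119) or with no filter (0.117). The same held with the libraries compared alone (0.0646) and with the GC trend alone removed (0.0948).

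With PAE in both lines, the shared metallothioneins were lower in SKOV3/DDP than in SKOV3. MT2A differed by -2.53 (SE 0.28, adjusted p = 2.75e-06), with means of 247 ± 67.1 against 1428 ± 392 CPM. MT1X differed by -2.15 (SE 0.27, adjusted p = 8.23e-06) and MT1F by -1.13 (SE 0.27, adjusted p = 0.00268). In all 3 the libraries of the lines did not overlap, but the share of all genes without overlap was not counted. MT1E went the other way, as described above. MTF1 was at 49.5 ± 21.5 CPM in SKOV3/DDP and 31.7 ± 5.67 CPM in SKOV3, a difference of 0.64 (SE 0.29, adjusted p = 0.0734) that did not pass the test, with overlapping libraries. Without the second SKOV3/DDP library with PAE it was called (0.85, adjusted p = 0.0272), as it was with the GC trend alone removed (0.62, adjusted p = 0.0426), and without the third it was 0.24 (adjusted p = 0.472). Of the 10 genes, 5 were tested and 4 were called between these groups, MT1E included, which had to differ. Among all genes tested, 54.5% were called, 27.5% higher and 27.1% lower. The change was almost unrelated to GC content across genes (Spearman -0.0076). The differences of MT2A, MT1X and MT1F kept their direction and their call in all alternatives run, including removal of the GC and length trend, with MT2A between -2.73 and -2.31.

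In SKOV3, MT2A, MT1X and MT1F fell and MTF1 rose with PAE, but the direction of the metallothioneins did not hold once base composition and length were taken into account. MT2A fell by 2.08 (SE 0.28, adjusted p = 5.70e-06), from 6051 ± 1459 to 1428 ± 392 CPM. MT1X fell by 1.25 (SE 0.26, adjusted p = 0.000448), from 409 ± 61.5 to 172 ± 9.64 CPM, and MT1F fell by 1.08 (SE 0.27, adjusted p = 0.00181). MTF1 rose by 2.54 (SE 0.32, adjusted p = 2.81e-06), from 5.47 ± 1.2 to 31.7 ± 5.67 CPM. The 4 genes were called where 75.3% of all genes were, 42.6% higher and 32.7% lower, with a median gene at 0.48; scaled by library size only, 70.3% of the called genes were higher, against 56.5%. Across genes the change fell with GC content (Spearman -0.775). With the trend on GC content and length removed, the metallothioneins were higher rather than lower with PAE (MT2A 0.69, adjusted p = 0.0502; MT1X 1.51, adjusted p = 0.000371; MT1F 2.63, adjusted p = 3.44e-06), and MTF1 was still higher (0.96, adjusted p = 0.0044). With the trend on GC content alone removed, MT2A still fell, by 1.11 (adjusted p = 0.00224), and MT1X was at -0.32 (adjusted p = 0.297). MT1F was called in the other direction, at 0.81 (adjusted p = 0.0142). The 4 metallothionein genes are short (401 bases for MT2A and 404 for MT1X) and between 53.5 and 58.2% GC, and MTF1 is 8872 bases long with 46.7% GC.

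Between the untreated lines, MT2A was lower and MTF1 higher in SKOV3/DDP under every scaling, while MT1X and MT1F depended on the scaling. This comparison shares the untreated SKOV3 libraries with the one above. MT2A was lower in SKOV3/DDP, at -3.56 (SE 0.29, adjusted p = 3.24e-08), with 511 ± 19.8 against 6051 ± 1459 CPM. MT1X was at -2.31 (SE 0.27, adjusted p = 1.18e-06) and MT1F at -1.41 (SE 0.27, adjusted p = 0.000202). MTF1 was higher, at 2.23 (SE 0.31, adjusted p = 8.91e-06), with 25.7 ± 4.94 against 5.47 ± 1.2 CPM. Of the 10 genes, all 5 that were tested were called (MT1E included, which had to differ). Among all genes tested, 81.8% were called, 45.8% higher and 36.0% lower, with a median gene at 0.54. The Spearman correlation between change and GC content was -0.564. With the GC and length trend removed, MT2A was still lower (-0.73, adjusted p = 0.0292) and MTF1 still higher (0.58, adjusted p = 0.0428), while MT1X was at 0.49 (adjusted p = 0.108) and MT1F at 2.24 (adjusted p = 3.69e-06). With the GC trend alone removed, MT2A was at -2.64 (adjusted p = 9.00e-07) and MT1X at -1.44 (adjusted p = 0.000153), both still lower, and MT1F was at 0.32 (adjusted p = 0.267).

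**Figure D4:**
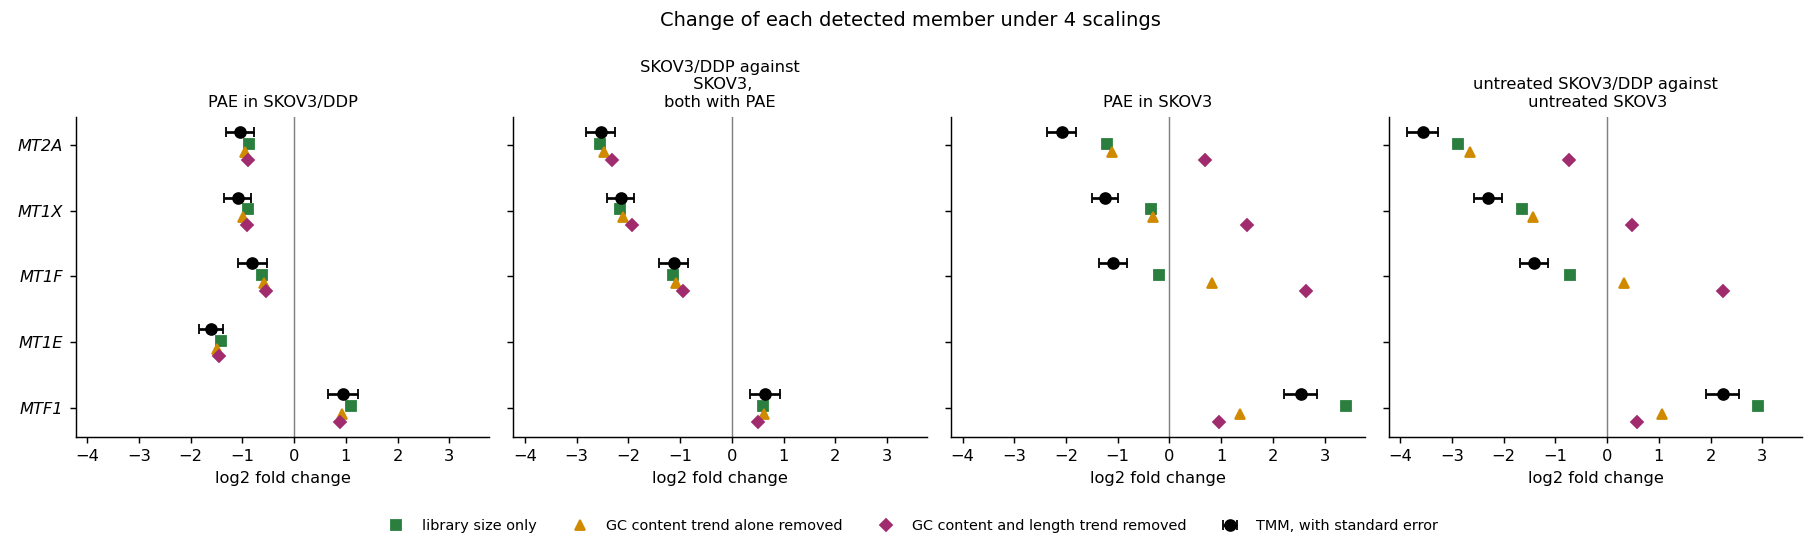
Log2 fold change (horizontal axes) of the tested genes in 4 comparisons under 4 scalings; circles are the TMM values with bars of 1 standard error, and the other symbols are library size only, the GC trend alone removed, and the GC and length trend removed. The symbols lie close together in the 2 left panels, with PAE in SKOV3/DDP and with PAE in both lines, and spread widely in the 2 right panels, which involve untreated SKOV3: with PAE in SKOV3 the 3 metallothioneins lie on both sides of 0, and between the untreated lines MT1X and MT1F do, while MT2A stays below 0.

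The effect of PAE was compared between the lines by the interaction term (the change in SKOV3/DDP minus that in SKOV3). It was 1.03 for MT2A (SE 0.38, adjusted p = 0.0265) and -1.59 for MTF1 (SE 0.42, adjusted p = 0.00389). For MT1X it was 0.16 (SE 0.36, adjusted p = 0.746) and for MT1F 0.28 (SE 0.38, adjusted p = 0.552), and neither passed the test. Of the 4 genes with this term, 2 were called. Among all genes tested, 62.9% were called, 25.5% higher and 37.4% lower (28.3% of called genes higher with library size only, against 40.6%). This term includes the untreated SKOV3 libraries. With the GC and length trend removed, MT2A was called in the other direction, at -1.59 (adjusted p = 0.00511), MT1X at -2.42 (adjusted p = 0.000183) and MT1F at -3.18 (adjusted p = 1.82e-05) were called, and MTF1 at -0.08 (adjusted p = 0.893) was not. With the GC trend alone removed, MT1F was called at -1.41 (adjusted p = 0.00602). MT2A also lost the call when any 1 of 5 libraries was left out (0.87 to 0.95). MT1E has no such term, as it had no counts in SKOV3.

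Of 12 further metallothionein loci and copies, 9 were listed and 1 was tested, MT1XP1, a processed copy of MT1X on chromosome 1. MT1XP1 had 2, 11 and 10 counts in untreated SKOV3, SKOV3 with PAE and untreated SKOV3/DDP, and 180 in SKOV3/DDP with PAE, where its libraries lay between 1.76 and 4.76 CPM. It rose with PAE in SKOV3/DDP by 3.82 (adjusted p = 0.00189), a direction opposite to MT1X. Its sequence is close to that of MT1X, so these counts are uncertain. None of the other 8 loci had more than 5 counts in any group.

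Zinc transporters move zinc across membranes, and the family holds 2 genes under known control of MTF1. SLC30A1 was at 45.7, 78.0 and 34.7 CPM in untreated SKOV3/DDP and at 92.8, 78.7 and 167 CPM with PAE, a rise of 1.09 (SE 0.33, adjusted p = 0.0232). In SKOV3 it rose by 2.12 with PAE (adjusted p = 3.72e-05), from 29.5 ± 5.36 to 128 ± 30.3 CPM. SLC30A1 and the metallothioneins, which share MTF1 as a known driver, thus moved in opposite directions with PAE in SKOV3/DDP. The third library with PAE was the highest for SLC30A1, and no alternatives were run for the zinc transporters. SLC39A10 was at 85.5, 37.8 and 71.1 CPM in untreated SKOV3/DDP and at 11.3, 15.2 and 17.7 CPM with PAE, where it fell by 2.14 (SE 0.31, adjusted p = 0.000337). In SKOV3 it rose (adjusted p = 4.05e-08), from 2.48 ± 0.742 to 52.5 ± 9.30 CPM, and the difference of its PAE effect between the lines was -6.54 (adjusted p = 1.42e-07). SLC39A10 thus moved in opposite directions in the lines, and its SKOV3 change is one against the untreated SKOV3 libraries. Of 24 zinc transporters, 17 were tested. In SKOV3/DDP, 3 rose and 3 fell with PAE, where 26.4% of all genes were called (median -0.05, all genes 0), from SLC30A4 at 1.24 to SLC39A10. In SKOV3, where 75.3% of all genes were called, 11 rose and 6 fell (median 1.98, all genes 0.48), from SLC39A10 to SLC39A4 at -4.33, which rests on 1 untreated library at 13.3 CPM beside 1.36 and 0.763. The 11 that rose had 36.2 to 47.7% GC and the 6 that fell 49.9 to 62.8%. Across all genes this change also fell with GC content, and the part of that trend in these changes was not tested. SLC39A4 and SLC39A8 are importers at the cell surface. Between the untreated lines, where 81.8% of all genes were called, 10 were higher and 5 lower in SKOV3/DDP, from SLC39A10 at 4.71 to SLC30A3 at -6.47. With PAE in both, where 54.5% of all genes were called, 4 were higher and 5 lower (median 0.10, all genes 0.06), from SLC39A4 at 6.01 to SLC39A8 at -6.32. The interaction, called for 62.9% of all genes, was called higher for 5 and lower for 8 (median -1.23, all genes -0.62), from SLC39A4 at 4.14 to SLC39A10.

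Around the cluster, 8 protein-coding neighbours were read and all were tested. With PAE in both lines, 6 were lower in SKOV3/DDP and 0 higher (median -1.80, all genes 0.06), where 27.1% of all genes were lower and 27.5% higher. NUP93, a nuclear pore subunit just beyond MT1X, was at -1.87 (adjusted p = 2.73e-05), and OGFOD1, a prolyl hydroxylase of a ribosomal protein on the other side, at -1.02 (adjusted p = 0.008). GNAO1, a G protein subunit, had 3496 counts in untreated SKOV3 and 2239 with PAE, against 1 and 0 counts in SKOV3/DDP. GNAO1 and MT1E were thus each seen in 1 line almost alone and in opposite lines. PAE changed 1 neighbour in SKOV3/DDP, BBS2 at -0.79 (adjusted p = 0.0207), with a median of -0.21 and 26.4% of all genes called. In SKOV3, with 75.3% called, it raised 5 and lowered 1 (median 1.79), from SLC12A3 at 2.98 to GNAO1 at -1.34. SLC12A3 rests on few counts, with 6 in untreated SKOV3 and 80 with PAE, and 0 and 5 in SKOV3/DDP. It is also among the genes counted as lower in SKOV3/DDP, both untreated and with PAE. The 5 raised genes had 37.4 to 54.1% GC and GNAO1 had 59.3%. Between the untreated lines, 3 were higher and 3 lower in SKOV3/DDP (median -0.12, 81.8% of all genes called), HERPUD1 most of the former at 2.43, where 1 library at 1681 CPM stood far above the other two. The interaction was called higher for 0 and lower for 3 genes, from OGFOD1 at -1.62 to BBS2 at -2.73 (median -1.08, 62.9% of all genes called).

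Metallothionein genes also answer to glucocorticoids, so 9 other glucocorticoid-induced genes were read, of which 8 were tested. With PAE in SKOV3/DDP, PER1, a clock gene, rose by 1.42 (adjusted p = 0.0116) and FKBP5, a chaperone of the glucocorticoid receptor, by 1.05 (adjusted p = 0.0499), and 0 fell (median 0.11, all genes 0), where 26.4% of all genes were called. With PAE in SKOV3, 3 rose and 3 fell (median 0.01, 75.3% of all genes called), from KLF9 at 3.63 to CEBPD at -2.25. Between the lines, 1 was higher and 4 lower in SKOV3/DDP untreated (median -0.82, 81.8% of all genes called), with KLF9 at 2.03, and 1 higher and 5 lower with PAE (median -1.70, 54.5% called), with PER1 at 2.63 and CEBPD, a transcription factor of acute responses, at a mean of 0.129 against 108 CPM. The interaction was called higher for 2 and lower for 2 (median -0.24, 62.9% of all genes called), from PER1 at 3.51 to KLF9 at -3.67.

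The protein-coding genes whose log2 CPM followed MT2A most closely over the 12 libraries were BCL3 (Pearson r = 0.993), SHFL (0.990), LYL1 (0.989), PLAUR (0.988) and ARHGEF19 (0.987). MT1X came 77th of all genes tested, at 0.975, MT1F was at 0.958, MT1E at -0.832 and MTF1 at -0.876. The 12 libraries fall into 4 groups that carry most of the variation, and 1497 of 17133 other genes had an r above 0.9, so these values describe the order of the group means. They were computed without removal of the trend on GC content that set the untreated SKOV3 libraries apart, and its part in them was not tested.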

How the data were processed

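Poly-A RNA was sequenced from 12 libraries of 2 cell lines with or without PAE, made with the NEBNext Ultra kit, which does not mark strand. The authors deposited raw counts (whole numbers, unnormalized), 1 table a library, with coordinates on GRCh38. The submitters' processing notes name HISAT2 2.0.5, StringTie 1.3.3b, DESeq2 and edgeR, without their roles. Which program counted reads, with which annotation and strand setting, is not given in the sources used here. Between 0.126% and 0.678% of counts were on 869 loci without a gene name, which were left out.

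Counts were analysed in R 4.3.3 with edgeR 4.0.16 (filterByExpr, TMM factors, quasi-likelihood test) in 1 fit of all 12 libraries and 4 groups, with Benjamini-Hochberg adjustment over 17133 genes at 0.05. TMM factors were 0.644 to 0.674 in untreated SKOV3 and 0.975 to 1.23 in the other libraries. Standard errors were derived from each log2 fold change and its F statistic. Correlations used log2 CPM with a prior count of 2. The step was also tested on simulated data. Alternatives were library size only, no filter, at least 10 counts in every library, the libraries compared alone, the replicate number as a block, DESeq2 1.42.0, each library left out, and removal of each library's spline trend (5 degrees of freedom) on GC content and length. Removal of the trend on GC content alone was chosen after seeing the data. GC content came from GENCODE 29 and was known for 91.5% of genes tested. The 10 genes, the gene lists (other metallothionein loci, zinc transporters, cluster neighbours, glucocorticoid-induced genes and lineage markers) and the comparisons were chosen with earlier results of these data known. Beyond the 10 genes, the text names SLC30A1, SLC39A10, the called gene of largest and smallest change of each list, and the 5 protein-coding genes most correlated with MT2A. NUP93, KRT7, PAX8, MUC16, MSLN and CDH17 were named after their values were seen, and so was GNAO1 where it is set beside MT1E. One more gene near the cluster was left out of the lists and is not reported here.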

Additional observations from a re-analysis of the deposited data

Results flagged for a closer look

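The PAE effect differed between the lines by the interaction term for 2 genes. For MT2A the change in SKOV3/DDP minus that in SKOV3 was 1.03 on the log2 scale (edgeR's quasi-likelihood test, adjusted p = 0.0265), since MT2A fell by 1.05 in SKOV3/DDP and fell by 2.08 in SKOV3. For MTF1 it was -1.59 (adjusted p = 0.00389), since MTF1 rose by 0.94 in SKOV3/DDP and by 2.54 in SKOV3. In both lines all 3 libraries with PAE lay on the same side of the 3 untreated ones, but the share of all genes with this separation was not counted. Neither term kept its call once the trend on GC content alone was removed (0.17, adjusted p = 0.743, and -0.44, adjusted p = 0.351). With the GC and length trend removed, the MT2A term was called in the other direction (-1.59, adjusted p = 0.00511), and that of MTF1 was -0.08 (adjusted p = 0.893).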

How the results depend on the processing

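The changes of MT2A, MT1X and MT1E with PAE in SKOV3/DDP, and the lower MT2A, MT1X and MT1F in SKOV3/DDP when both lines had PAE, kept their direction and call under each alternative that gave a value. So did the lower MT2A in SKOV3/DDP between the untreated lines (-3.81 to -0.73). Other metallothionein changes against untreated SKOV3 (MT1X and MT1F between the lines, and MT2A, MT1X and MT1F with PAE in SKOV3) did not. With the GC content and length trend removed, the sign turned between the untreated lines for MT1X (0.49) and MT1F (2.24), with PAE in SKOV3 for MT2A (0.69), MT1X (1.51) and MT1F (2.63), and in the interaction for MT2A (-1.59), MT1X (-2.42) and MT1F (-3.18). With the GC trend alone removed, it turned for MT1F between the untreated lines (0.32) and with PAE in SKOV3 (0.81), and in the interaction for MT1X (-0.66) and MT1F (-1.41). With library size only, the interaction was -0.52 for MT1X and -0.42 for MT1F; the cause of these reversals was not tested. Library size only moved the median gene from 0.54 to 1.23 between the untreated lines, from 0.48 to 1.36 with PAE in SKOV3, from 0 to 0.16 with PAE in SKOV3/DDP and from -0.62 to -1.30 in the interaction. Over all genes, 12895 were called with PAE in SKOV3, 7867 with the GC and length trend removed and 8072 with the GC trend alone removed, and in the interaction 10778, 6526 and 6611. With PAE in SKOV3/DDP 4526 genes were called, 2815 without the first untreated library and 2837 without the third. Of the 10 genes, 2 were called with PAE in SKOV3 under library size only, against 4, with MT1X at -0.37 (adjusted p = 0.194) and MT1F at -0.20 (adjusted p = 0.527). In the interaction, 1 gene was called under library size only and with the GC trend alone removed, against 2, 1 to 2 with any 1 library left out, and 3, all lower, with the GC and length trend removed, where MT2A was called in the other direction (adjusted p = 0.00511). With PAE in SKOV3/DDP, 3 to 5 genes were called with any 1 library left out, and 3 without the third untreated or the third treated library, against 5. Leaving out a library kept 149 single-gene values on their side of the threshold, lost 12 calls and added 1. Replicate numbers did not pair the libraries: correlations of same-numbered libraries were -0.171 to 0.117, and 3 of 18 pairs were over 0.1. With the replicate block, 5 genes were called with PAE in SKOV3/DDP (MT1E at -1.62), and no call changed. The filter of 10 counts in every library drops MT1E, so no value was given for it there. Genes under a few counts could not be compared at this depth.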
